A study of Mus musculus with 2 samples.

Results

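The 10 genes described here encode the VEGF ligands (Vegfa, Vegfb, Vegfc, Vegfd and Pgf), their receptor tyrosine kinases (Flt1, Kdr and Flt4) and the neuropilin co-receptors (Nrp1 and Nrp2). They were taken by symbol from 43346 Ensembl genes in the files, and all 10 matched, with 35 listed transcripts among them. Both libraries were made from total RNA of heart tissue of healthy B6NCrl mouse embryos of 13.5 days, with males and females pooled, and the labels number them as biological replicates 1 and 2 of 1 group and name no genotype beyond the strain and no treatment. No other group was measured, so levels, their order and the transcripts behind them could be described, and conditions could not be compared. The labels do not say how many embryos went into a pool, and both tissue samples carry the same donor entry, so the spread between the libraries need not be that between litters.

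VEGF ligands are secreted dimers that guide the growth of blood and lymphatic vessels. Vegfa binds Flt1 and Kdr, Vegfb and Pgf bind Flt1, Vegfc and Vegfd bind Flt4, and fully processed Vegfc also binds Kdr. Kdr carries most of the mitogenic signal in blood endothelium, Flt1 can hold ligand back, above all as a secreted form that lacks the kinase, and the neuropilins bind heparin-binding VEGF isoforms as well as class 3 semaphorins. In the embryonic heart this system takes part in the formation of the coronary plexus, the endocardial cushions and the cardiac lymphatics.

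Splicing decides what several of these genes encode, so the stretches that differ are shown first. They were read from GENCODE M21 transcript sequences on GRCm38 in the direction of transcription and are coding sequence without the stop codon. In Vegfa (minus strand), exon 5 (chr17:46024065-46024094) can be joined directly to the coding part of exon 8 (chr17:46018861-46018879) or through exon 7 (chr17:46020991-46021122) alone or through exons 6 (chr17:46022277-46022348) and 7. A join through exon 6 alone, in Vegfa-203, and one through a shorter exon 6 and exon 7, in Vegfa-204, are also listed and are not printed. Capitals mark the optional exons.
Vegfa-201: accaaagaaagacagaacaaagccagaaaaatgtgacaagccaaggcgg
Vegfa-202: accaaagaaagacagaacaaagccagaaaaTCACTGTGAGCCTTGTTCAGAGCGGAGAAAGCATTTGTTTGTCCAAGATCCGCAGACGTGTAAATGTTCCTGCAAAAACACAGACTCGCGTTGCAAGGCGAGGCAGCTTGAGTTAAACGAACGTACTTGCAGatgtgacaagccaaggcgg
Vegfa-207: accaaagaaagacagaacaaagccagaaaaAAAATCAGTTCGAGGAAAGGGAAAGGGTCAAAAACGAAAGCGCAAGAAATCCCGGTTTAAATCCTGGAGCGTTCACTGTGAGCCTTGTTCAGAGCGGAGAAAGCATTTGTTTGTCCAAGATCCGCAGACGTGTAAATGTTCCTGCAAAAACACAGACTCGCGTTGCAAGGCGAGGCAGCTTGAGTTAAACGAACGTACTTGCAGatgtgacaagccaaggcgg

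Exon 6 as printed adds 24 residues, of which 13 are lysine or arginine, and exon 7 adds 44 residues with 7 cysteines and 9 lysines or arginines. Counted from the usual start methionine and without the signal peptide of 26 residues, Vegfa-201 encodes 120 residues, Vegfa-202 encodes 164 and Vegfa-207 encodes 188, the products known by those lengths. The shortest form lacks both heparin-binding inserts and is the freely diffusing one.

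Vegfb (minus strand) has 2 acceptors for exon 6. The upstream one adds 101 bases (chr19:6985496-6985596, capitals), which shift the reading frame of everything after them.
Vegfb-201: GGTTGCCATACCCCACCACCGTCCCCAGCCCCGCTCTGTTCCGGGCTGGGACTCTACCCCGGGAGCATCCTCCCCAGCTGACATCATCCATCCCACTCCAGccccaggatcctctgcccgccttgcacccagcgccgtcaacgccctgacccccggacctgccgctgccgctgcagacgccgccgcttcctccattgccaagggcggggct
Vegfb-202: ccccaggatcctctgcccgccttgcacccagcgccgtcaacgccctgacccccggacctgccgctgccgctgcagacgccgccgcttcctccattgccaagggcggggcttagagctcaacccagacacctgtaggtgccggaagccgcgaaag

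Without a signal peptide of 21 residues the product of Vegfb-201 has 186 residues and that of Vegfb-202 has 167. From the point where they part, the end of the Vegfb-202 product has 52 residues with 17 lysines or arginines and 8 cysteines, and that of Vegfb-201 has 71 residues with 5 lysines or arginines and no cysteine.

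Flt1 (minus strand) makes its secreted form by reading through the end of exon 13 into intron 13. Capitals mark the 92 coding bases taken from the intron (chr5:147639133-147639224), which open with the GT of the unused donor site, and, for the full-length transcript, exon 14 (chr5:147634377-147634523).
Flt1-203: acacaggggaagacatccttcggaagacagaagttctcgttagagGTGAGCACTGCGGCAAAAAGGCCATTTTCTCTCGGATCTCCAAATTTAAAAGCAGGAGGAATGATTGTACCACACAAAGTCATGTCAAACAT
Flt1-202: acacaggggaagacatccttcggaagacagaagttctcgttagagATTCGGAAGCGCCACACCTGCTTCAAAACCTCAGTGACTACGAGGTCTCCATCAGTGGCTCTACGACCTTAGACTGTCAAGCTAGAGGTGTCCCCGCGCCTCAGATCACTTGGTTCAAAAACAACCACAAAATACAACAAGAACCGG

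The product of Flt1-203 ends after 688 residues, 31 of them its own, and that of Flt1-202 has 1333. The most hydrophobic window of 19 residues in the latter, at residues 763 to 781, lies beyond the point where they part.

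Levels are given in TPM, the share of all transcripts after correction for transcript length, so that each library has the same total. The estimated reads summed to 36733400 in replicate 1 and 36060765 in replicate 2, spike-in RNA taking 5.96% and 2.56% of them, and all 10 cardiomyocyte markers were detected, led by Actc1, Myl2 and Tnnt2. Of the 10 members, 10 reached 1 TPM in both libraries, against 57.3% of 21474 protein-coding genes. The deposited bounds printed after a TPM value in parentheses are those of a credibility interval whose level the files do not state. They lie around a posterior mean and cover the estimation of reads within 1 library, not the spread between embryos. Estimated counts of all 10 genes were exactly whole, as deposited to 2 decimals, in both libraries.

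Vegfb (chr19:6982473-6987651 on GRCm38) was the highest member. It stood at 97.1 TPM (92.0 to 98.9) in replicate 1 and 109 TPM (103 to 111) in replicate 2, a mean of 103 ± 8.63 TPM (SD, n = 2), and was above 94.4% of protein-coding genes in each library. Its 3093 and 3278 reads made it the best-counted ligand. It held 80.2% of the summed TPM of the 5 ligands in replicate 1 and 81.7% in replicate 2.

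Vegfc (chr8:54077606-54187096), the lymphatic growth factor, followed among the ligands at 9.83 TPM (8.81 to 10.5) and 11.6 TPM (10.5 to 12.3), a mean of 10.7 ± 1.24. Pgf (chr12:85166635-85177790), placental growth factor, was at 6.51 TPM (5.69 to 7.17) and 6.05 TPM (5.22 to 6.70), a mean of 6.28 ± 0.325. Both libraries gave these ligands the same order, and the bounds of Vegfc and Pgf did not overlap in either.

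Vegfa (chr17:46016993-46032369), the main ligand of Kdr, was among the lowest members. It was at 3.99 TPM (3.88 to 5.51) in replicate 1 and 4.25 TPM (3.94 to 5.77) in replicate 2, a mean of 4.12 ± 0.184 TPM on 277 and 270 reads. Vegfd (chrX:164373378-164402650), the other ligand of Flt4, was at 3.66 TPM (3.17 to 4.19) and 2.68 TPM (2.28 to 3.21), a mean of 3.17 ± 0.693 on 209 and 143 reads. Vegfb exceeded Vegfa 24.3-fold in replicate 1 and 25.7-fold in replicate 2, and Vegfc exceeded it 2.46-fold and 2.73-fold. Vegfa was 1.09-fold and 1.59-fold above Vegfd. Their bounds overlapped in replicate 1 and were apart in replicate 2, so these ligands were not separated in both libraries.

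Among the receptors Kdr was highest, then Flt1, then Flt4, in both libraries and with bounds apart. Kdr (chr5:75932827-75978458) stood at 27.0 TPM (25.7 to 27.3) and 26.7 TPM (25.4 to 27.0), a mean of 26.9 ± 0.191 on 4595 and 4253 reads. Flt1 (chr5:147561604-147726011) was at 14.7 TPM (13.7 to 15.9) and 16.1 TPM (14.8 to 17.5), a mean of 15.4 ± 1.01 over all its transcripts. Flt4 (chr11:49609263-49652739), the receptor of Vegfc and Vegfd, was at 6.47 TPM (6.01 to 6.75) and 6.04 TPM (5.57 to 6.31), a mean of 6.26 ± 0.304. Kdr exceeded Flt1 by 1.84-fold and 1.66-fold and Flt4 by 4.17-fold and 4.42-fold.

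Nrp1 (chr8:128358604-128503363), which binds Vegfa and semaphorin 3A, was the next highest member after Vegfb. It stood at 59.0 TPM (56.8 to 59.03) and 60.5 TPM (58.1 to 60.49), a mean of 59.8 ± 1.07 TPM, and with 10041 and 9631 reads it was the most deeply counted of the 10. Its value in replicate 2 lay just above the upper bound, which belongs to a lower posterior mean. Nrp2 (chr1:62703285-62818695), known for its part in lymphatic vessels, was at 5.40 TPM (4.92 to 5.77) and 4.06 TPM (3.68 to 4.42), a mean of 4.73 ± 0.948. Nrp1 exceeded Nrp2 by 10.9-fold in replicate 1 and 14.9-fold in replicate 2.

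**Figure D1:**
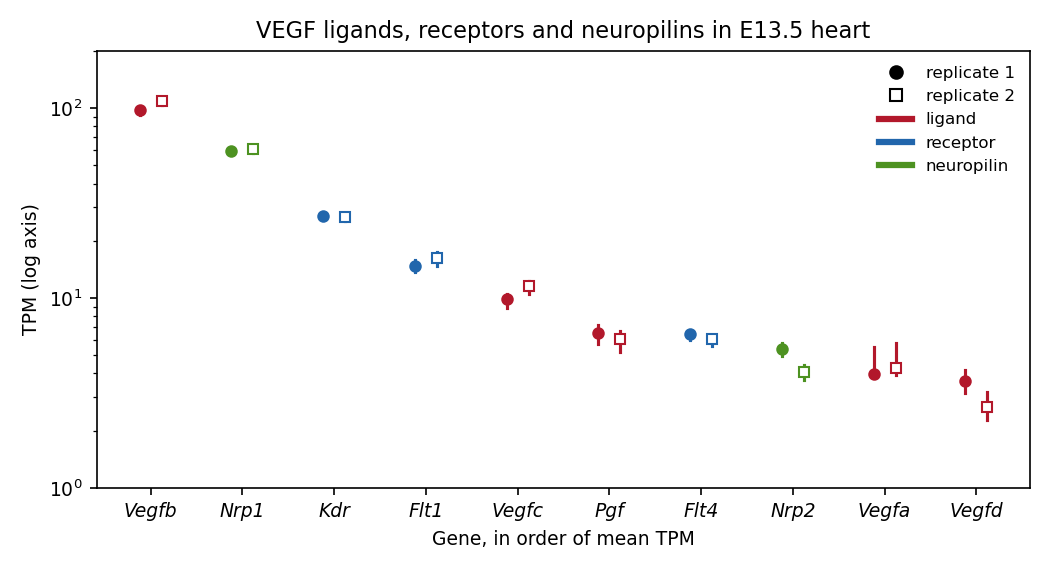
TPM (log axis) of the 10 genes in order of their mean, with circles for replicate 1, squares for replicate 2, vertical lines for the deposited bounds and colours for ligands, receptors and neuropilins. Vegfb at 97.1 and 109 TPM stands above all others, and the 5 genes from Pgf to Vegfd lie between 2.68 and 6.51 TPM.

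The order from Vegfb through Nrp1, Kdr, Flt1 and Vegfc held in both libraries with no overlap of bounds. Of the 45 pairs of members, 39 had the same direction and separate bounds in both libraries. The 6 others were Vegfa with Vegfd, Pgf, Flt4 and Nrp2, and Pgf with Flt4 and Nrp2, all among the 5 lowest genes. In 1 of them, Vegfa and Nrp2, the direction itself differed, since Nrp2 was higher in replicate 1 and Vegfa in replicate 2. TPM is per length, so these ratios count transcripts and not reads, and they depend on the annotated transcript lengths.

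Receptor and neuropilin levels can be set beside those of vessel markers, though fewer cells of a type and less RNA per cell cannot be told apart in bulk tissue. The summed TPM of 20 endothelial and endocardial markers was 949 in replicate 1 and 1039 in replicate 2, and all 20 were detected. Kdr stood at 0.565 and 0.537 of the level of Pecam1, a general endothelial adhesion gene (47.8 and 49.7 TPM), and Flt1 at 0.308 and 0.324. Flt4 was at 0.135 and 0.121 of it. Nrp1 was above Pecam1, at 1.24 and 1.22 of its level, and so was Vegfb at 2.03 and 2.20. Of the 20 markers, 9 and 8 were below Kdr, and 15 and 14 were below Nrp1.

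Vegfb was split between its 2 coding transcripts in much the same way in both libraries. Vegfb-202, the transcript of the form of 167 residues, held 56.5% of the gene in replicate 1 and 54.6% in replicate 2, a mean of 55.6% ± 1.30 (n = 2). Vegfb-201, of the form of 186 residues, held 40.4% and 42.9%. In TPM, Vegfb-202 was at 54.9 (48.3 to 59.2) and 59.7 (52.9 to 64.0), and Vegfb-201 at 39.3 (33.6 to 43.1) and 46.9 (41.2 to 51.0), so the bounds were apart in each library. The ratio was 1.40-fold and 1.27-fold. A transcript with a retained intron, Vegfb-203, held the remaining 3.11% and 2.49%.

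Vegfa was spread over 11 listed transcripts, and its 277 and 270 reads separated few of them. The transcripts that join exon 5 to exon 8, Vegfa-201 and Vegfa-211, together held 62.8% in replicate 1 and 75.4% in replicate 2, a mean of 69.1% ± 8.92 on 209 and 258 estimated reads. Vegfa-201 alone was at 1.68 TPM (1.17 to 2.31) and 1.66 TPM (1.00 to 2.26). Vegfa-211 was at 0.83 TPM (0.141 to 1.23) and 1.54 TPM (0.530 to 1.86), with bounds that overlapped those of Vegfa-201 in both libraries. Its length is 3324 nt in the files and 975 nt in M21, so its class rests on a model that was changed after the files were made. Without it, Vegfa-201 held 53.1% and 61.5% of the other transcripts. In M21, the coding sequences of Vegfa-202, Vegfa-207 and Vegfa-211 begin upstream of the usual start methionine.

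The transcript through exon 7 without exon 6, Vegfa-202, was estimated at 12.8% in replicate 1 and at 0% in replicate 2. Its TPM was 0.51 in replicate 1, with an upper bound of 0.983, and it was listed at 0 in replicate 2, with an upper bound of 0.663. The coding transcripts with exons 6 and 7, Vegfa-204 and Vegfa-207, were listed at 0 TPM in both libraries, with upper bounds of 0.323 to 0.590 TPM. Without the signal peptide their products have 182 and 188 residues, since exon 6 is shorter in Vegfa-204. Vegfa-203, with exon 6 but not exon 7, was listed at 0 and 0.20 TPM, with upper bounds of 0.603 and 0.755. Forms with the heparin-binding exons were not resolved at this depth and with these transcript models. Vegfa-203, Vegfa-204 and Vegfa-207 are listed with 513, 654 and 1973 nt. Vegfa-201, Vegfa-202 and Vegfa-211 are listed with 2765, 3451 and 3324 nt. Reads from sequence that a short model lacks can be assigned only to longer ones, whatever the depth.

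Retained-intron transcripts of Vegfa, 5 in number and without an annotated coding sequence, held 24.4% and 19.8%. They were led by different ones in each library, Vegfa-206 at 13.9% in replicate 1 and Vegfa-209 at 15.5% in replicate 2. They are short, between 463 and 874 nt, so that together they rested on 17.4 and 10.1 estimated reads. By reads rather than by TPM, the class that joins exon 5 to exon 8 held 75.6% and 95.4% of Vegfa. It was the largest class in both libraries by either measure, within the limit that the model lengths set on the other classes.

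**Figure D2:**
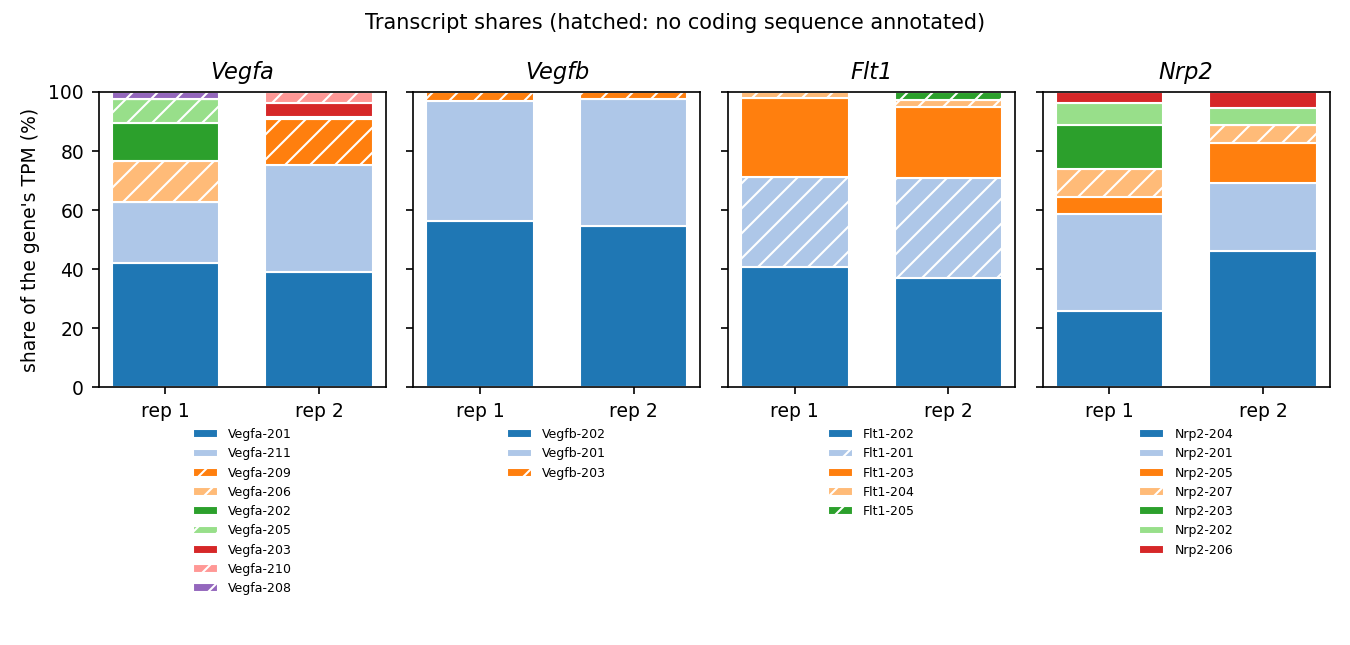
Share of each gene's TPM (percent) held by each transcript of Vegfa, Vegfb, Flt1 and Nrp2 in replicates 1 and 2, with transcripts without an annotated coding sequence hatched and those under 2% in both libraries not drawn. Vegfb keeps its split between libraries, at 56.5% and 54.6% for Vegfb-202, while the minor transcripts of Vegfa change from 1 library to the next.

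The secreted form of Flt1 was measured in both libraries at similar levels. Full-length Flt1-202 stood at 6.0 TPM (5.49 to 6.32) and 5.95 TPM (5.41 to 6.26), on 1195 and 1108 estimated reads. Soluble Flt1-203 stood at 3.96 TPM (3.50 to 4.25) and 3.84 TPM (3.41 to 4.17), on 718 and 651 estimated reads. It held 27.0% of the gene in replicate 1 and 23.8% in replicate 2, a mean of 25.4% ± 2.23. The full-length transcript exceeded the soluble one 1.52-fold and 1.55-fold (log2 ratio of soluble to full length −0.62 ± 0.02, n = 2), and their bounds were apart in both libraries. Among the 2 coding transcripts alone, the soluble one held 39.7% and 39.2%.

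A further Flt1 transcript stood near these by TPM. Flt1-201, of 2049 nt, shares 10 of its 11 splice junctions with the full-length model, ends before the membrane-spanning exon and has no annotated coding sequence. It stood at 4.45 TPM (3.32 to 5.46) and 5.49 TPM (4.14 to 6.52), or 30.3% and 34.1% of the gene, on 254 and 293 estimated reads. Its bounds lay below those of Flt1-202 in replicate 1 and overlapped them in replicate 2. None of the 3 non-coding Flt1 transcripts spans the membrane segment. Since 1 gene total sums these forms, the full-length kinase transcript of Flt1 was lower against that of Kdr than the gene total was. Kdr-201 exceeded Flt1-202 by 4.48-fold and 4.47-fold, against 1.84-fold and 1.66-fold for the genes.

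**Figure D3:**
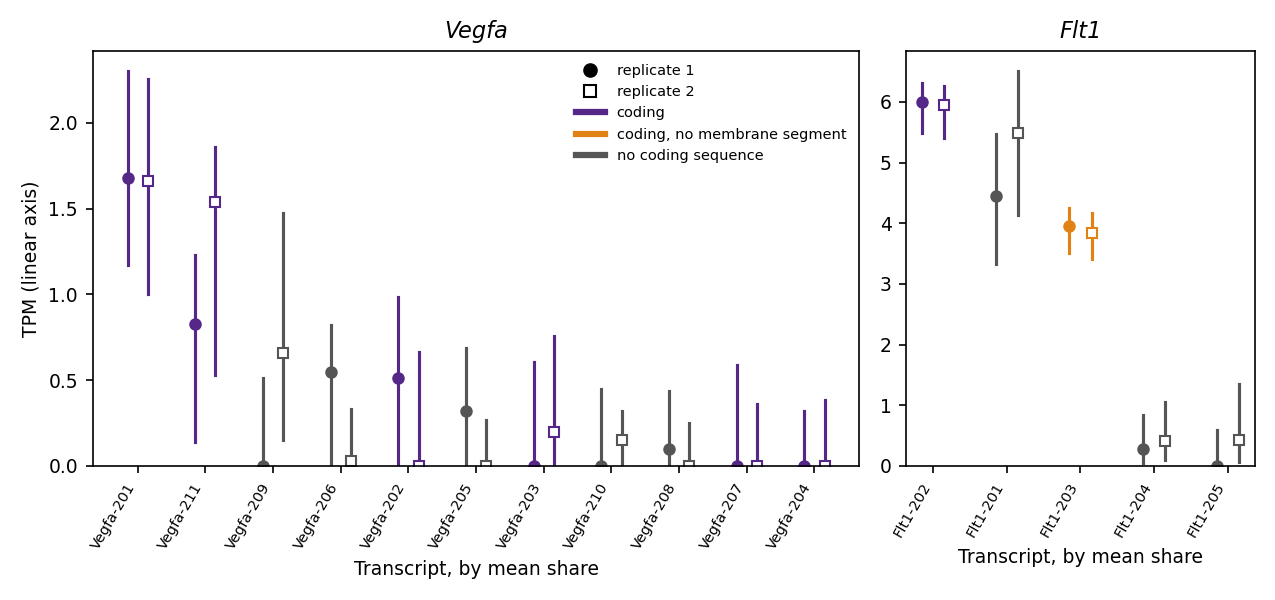
TPM (linear axes of different range) of every listed transcript of Vegfa and Flt1 in replicates 1 (circles) and 2 (squares), with the deposited bounds as lines and colours for coding transcripts, the coding transcript without a membrane segment and transcripts with no coding sequence. Flt1-202 at 6.0 and 5.95 TPM lies above Flt1-203 at 3.96 and 3.84 TPM with no overlap, while most Vegfa lines reach down to 0.

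Kdr and Flt4 were carried almost whole by their full-length transcripts. Kdr-201 held 99.5% in each library at 26.9 and 26.6 TPM. The listed truncated transcript, Kdr-202, reads on from exon 10 without further splicing, has no annotated coding sequence and held 0.52% and 0.55%, at 0.14 TPM (0.055 to 0.278) and 0.15 TPM (0.057 to 0.286). Flt4-201 held 97.1% and 98.2%. Truncated Flt4-202, also without a coding sequence, held 2.90% and 1.85% on 19.2 and 10.7 estimated reads. The files list no coding transcript of Kdr or Flt4 that lacks the membrane segment, so a secreted form of either was not measured.

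Nrp1 has 1 transcript in the files, as do Vegfc and Pgf, so soluble Nrp1 was not measured and shares of 100% for these 3 genes are a property of the annotation. The deposited lengths of Nrp1-201 and Vegfc-201, 5907 and 1881 nt, differ from the 3597 and 2449 nt of M21. Vegfd has 2 listed transcripts, of which Vegfd-201 held 100% in both libraries. All 6 coding transcripts of Nrp2 encode a membrane-spanning segment, of 2 kinds that belong to its a and b forms. The 4 transcripts of the a forms held 51.9% and 57.3%, and the 2 of the b forms, Nrp2-201 and Nrp2-205, held 38.6% and 36.7%, a mean of 37.6% ± 1.34. Within the a forms the split differed between libraries. Nrp2-203, whose product has 914 residues, was at 14.7% and 0%, and Nrp2-204, of 909 residues, at 25.9% and 46.2%, with bounds for Nrp2-204 of 0.063 to 1.74 and 0.256 to 2.01 TPM.

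Of the 7 members with more than 1 listed transcript, 4 (Vegfb, Vegfd, Kdr and Flt4) had a transcript that held over 50% in both libraries, and Vegfa, Flt1 and Nrp2 had none. Among 9054 protein-coding genes of at least 1 TPM with 2 or more listed transcripts, 71.5% had such a transcript.

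Between the libraries, 1 of the 10 members was at least 1.5-fold apart in counts scaled by TMM, against 3.39% of 13760 genes with a mean count of at least 50. This was Vegfd, at 212 scaled reads in replicate 1 and 141 in replicate 2. Its log2 ratio of replicate 2 to replicate 1 was −0.59, with a counting interval of −0.91 to −0.28 at 95%, and 3.28% of all those genes were as far apart or farther. Nrp2 followed at 864 and 629 scaled reads (−0.46, interval −0.61 to −0.31), with 5.65% of genes as far apart. The interval is exact binomial and covers counting error only, and each side is 1 library, so no p-value was computed.

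The other 8 members lay between −0.25 and 0.10. Vegfc (0.10) and Vegfb (0.04) were higher in replicate 2 and the remaining 8 of the 10 were lower, with a median of −0.14 over the members and −0.003 over all genes. Scaling by the spike-ins instead moved the median of all genes to 1.29 and that of the members to 1.15, with all 10 higher in replicate 2. Scaling of this kind adds about the same constant to every gene and leaves their order as it was. By the ratio of TPM, whose median over all genes was 0.15, 5 members were higher and 5 lower.

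**Figure D4:**
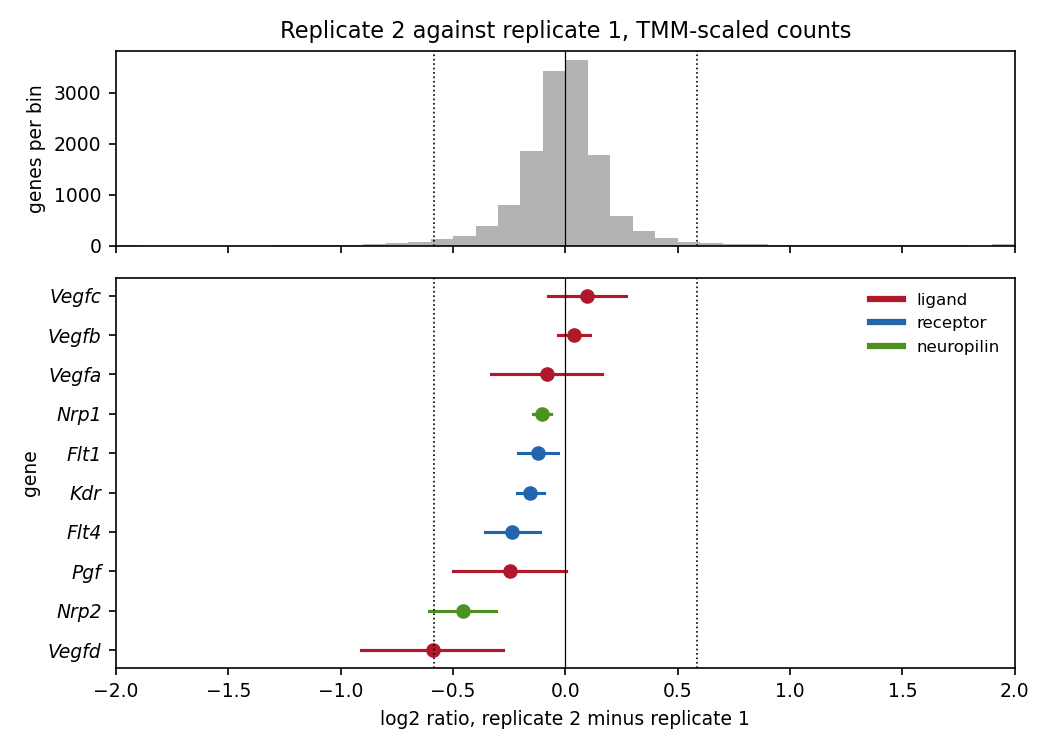
Log2 ratio of TMM-scaled counts, replicate 2 minus replicate 1, as a histogram over 13760 genes (top; values beyond 2 are in the end bins) and for each member with its 95% counting interval (bottom); dotted lines mark 1.5-fold. Vegfd at −0.59 and Nrp2 at −0.46 lie lowest, and the other 8 lie between −0.25 and 0.10.

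Markers of other tissues differed between the libraries beside these values. The 11 liver markers summed to 98.2 TPM in replicate 1 and 500 TPM in replicate 2, and all 10 with enough reads were at least 1.5-fold higher there. The 10 erythroid markers summed to 70862 and 46089 TPM. The 8 macrophage markers had a median log2 ratio of −0.36, with sums of 194 and 205 TPM. The 12 lung and foregut genes, a list added after the values of the members were seen, summed to 83.6 and 83.0 TPM. Their median log2 ratio was −0.25 over the 9 with enough reads. Of these 9, 2 were at least 1.5-fold lower in replicate 2 and 0 were 1.5-fold higher. The liver marker Hnf4a was at 0.15 and 0.58 TPM. The lung regulator Nkx2-1 was at 2.21 and 1.31 TPM, while Sftpc of the same list was at 7.89 and 9.37 TPM. The 20 endothelial markers had a median log2 ratio of −0.09, and Kdr (−0.16), Flt1 (−0.12) and Flt4 (−0.24) lay on the same side. The part of these tissues in the levels of the members was not tested.

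Genes of the wider pathway were mostly detected and mostly alike between the libraries. Of 29 signal transduction genes downstream of the receptors, 28 reached 1 TPM in both libraries, with list medians of 24.2 and 23.9 TPM. Hspb1, a small heat shock protein that VEGF signalling phosphorylates, was at 675 and 778 TPM, and the small GTPases Cdc42 and Rac1 were at 389 and 433 TPM and at 200 and 212 TPM. Sh2d2a, an adaptor of Kdr, was the only one of these 29 below 1 TPM, at 0.14 and 0.03. None of the 28 with enough reads was 1.5-fold apart, and their median log2 ratio was −0.002.

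Of 11 phosphatase and trafficking genes, 10 were detected, with list medians of 15.7 and 16.4 TPM. They were led by Gipc1, a partner of the neuropilin tail, at 118 and 133 TPM, Rab5a at 49.8 and 55.4 TPM and Epn1 at 35.7 and 35.9 TPM, by the mean of both libraries. Ptpn1, a phosphatase, was at 32.0 and 37.6 TPM and so above Epn1 in replicate 2. The phosphatase gene Ptprj was at 1.02 and 0.69 TPM, and it alone of the 11 was 1.5-fold apart (−0.59).

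The listed semaphorins and plexins were all below Nrp1, and several of them were above Nrp2 in both libraries. Of 13 class 3 semaphorins and plexins, 11 were detected, with list medians of 6.53 and 6.06 TPM. Plxnd1, a plexin of endothelial cells, led at 18.8 and 17.9 TPM, followed by Sema3c, a ligand needed for septation of the outflow tract, at 9.98 and 10.5 TPM and Sema3a at 9.24 and 9.78 TPM. Sema3e was at 0.98 and 0.66 TPM, the 1 gene of the list that was 1.5-fold apart (−0.73), and Sema3g at 0.40 and 0.42 TPM.

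Of 10 genes listed for the cleavage of pro-VEGF-C, 7 reached 1 TPM in both libraries, with list medians of 3.75 and 4.84 TPM. Ctsd, a lysosomal protease, was at 348 and 404 TPM, and the convertases Furin, Pcsk7 and Pcsk5 were at 11.1 and 12.2 TPM, at 11.3 and 11.8 TPM and at 10.7 and 10.3 TPM. The procollagen proteases Adamts2 and Adamts3 were at 5.47 TPM in both libraries and at 2.02 and 1.9 TPM. Ccbe1, the cofactor of Vegfc processing, was at 0.50 and 0.24 TPM and Adamts14 at 1.03 and 0.62 TPM. Plg, plasminogen, a liver product, was at 0.45 and 4.2 TPM. Of the 9 with enough reads, Plg was 1.5-fold higher in replicate 2 (3.06) and Adamts14 lower (−0.86), beside the liver markers given above.

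Lymphatic markers, which include Flt4 and Nrp2 by their use in the field, were all detected, with list medians of 5.94 and 5.36 TPM over 8 genes. The middle values were those of Nrp2 and Flt4 in replicate 1 and of Lyve1 and Flt4 in replicate 2. The medians thus restate members in part and are no separate comparison. Sox18, which is also in the endothelial and endocardial list, was at 27.0 and 29.6 TPM. Pdpn, which other cells also express, was at 19.7 and 22.9 TPM. Prox1, which cardiomyocytes also express, was at 12.3 and 14.2 TPM. Lyve1, a receptor of lymphatic cells and some macrophages, was at 4.70 and 4.67 TPM. Mmrn1 was at 3.35 and 2.83 TPM and Reln at 1.81 and 1.66 TPM.

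**Figure D5:**
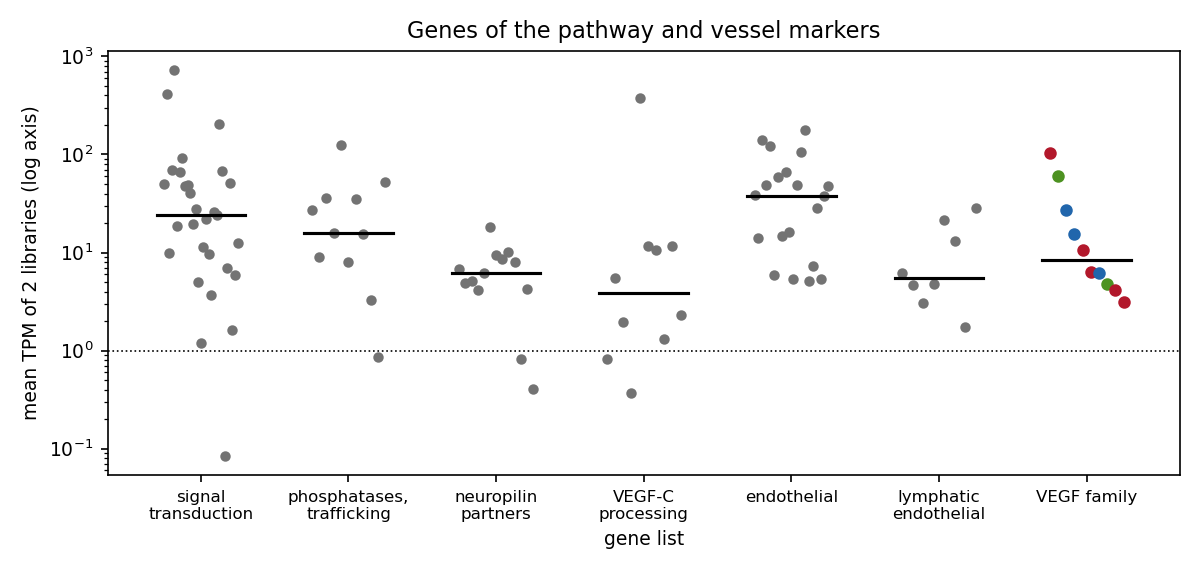
Mean TPM of the 2 libraries (log axis) of each gene of 4 pathway lists, the endothelial and lymphatic marker lists and the 10 members (coloured as ligands in red, receptors in blue and neuropilins in green), with bars at list medians and a dotted line at 1 TPM. Flt4 and Nrp2 are drawn both in the lymphatic list and among the members. The members span 3.17 to 103 TPM, within the range of the signal transduction genes.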

How the data were processed

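Total RNA of 2 heart pools was sequenced. The labels name mirVana extraction, 10 ng of RNA above 200 nt per library, spike-ins and, among linked manuals, that of a SMARTer Ultra Low kit. Per the deposited file descriptions, each library was quantified alone from transcriptome alignments on mm10 with annotation M4. Which aligner, quantifier and strand setting were used is not given in the sources used. The authors' expected counts are estimated reads per gene and per transcript without normalization. The deposited TPM values are scaled to 1 sum over all features, spike-ins included. In the deposited transcript files, percent values are shares of the gene's TPM, so short transcripts weigh more than their reads.

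Gene IDs, versions dropped, were looked up in GENCODE M21 (GRCm38), which held 42462 of 43346. Of the members' 35 transcripts, 32 had the M21 length. Nrp2 overlaps the antisense gene Gm29083 (0 and 5 reads) and, on its own strand, Gm37121 (2 and 6 reads). Coding sequences were translated from M21. A receptor product was taken as soluble when it lacked the most hydrophobic window of 19 residues, after the first 50, of its gene's longest product and had no other window with a mean Kyte-Doolittle value of at least 1.6. This last condition was added because Nrp2 b forms carry another segment.

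Expected counts were rounded and scaled over all Ensembl genes by TMM (edgeR 4.0.16, R 4.3.3), with 0.5 added for ratios and a mean count of at least 50 required. DESeq2 1.42.0 size factors, spike-ins, TPM, other pseudocounts and minimum counts, posterior means and leaving out either replicate were alternatives. The scaling was tested on simulated data. Levels, shares and exact intervals were computed in Python 3.11.15 with scipy 1.17.1, pandas 2.3.3 and numpy 2.4.6. Members and lists were chosen with earlier results of these data known. All members, their main or truncated transcripts, the 3 highest genes of each pathway list and those below 1 TPM were named. Pecam1, Ptpn1, Pcsk5, Adamts2, Adamts3, Hnf4a, Nkx2-1, Sftpc, Lyve1, Mmrn1, Reln, Gm29083, Gm37121 and genes 1.5-fold apart were named after their values were seen. There is 1 group, so no test between groups was made.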

Additional observations from a re-analysis of the deposited data

How the results depend on the processing

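The detected members (7 to 10), the separated pairs (36 to 44 of 45) and the count of members with a transcript over 50% (4 or 5) stayed within 1.5 times of the reported counts under every alternative run, leaving out either replicate included. With posterior mean TPM the log2 ratios of Vegfa moved to −4.41 over Vegfb, −1.14 over Vegfc and −0.38 over Pgf, with the same direction. With DESeq2 size factors Vegfd was at −0.58 and with the TPM ratio at −0.45, and 0 members were then 1.5-fold apart. A mean count of at least 200 also left 0, since it removes Vegfd from the comparison. With spike-in scaling 10 were apart, and Vegfd turned to 0.69. The share of Vegfa transcripts joining exon 5 to exon 8 was 55.3% from posterior means, 85.5% of expected counts, 88.5% of coding transcripts and, in an alternative chosen after seeing the data, 57.3% without transcripts of another length in M21. Soluble Flt1 held 32.4% of expected counts and 39.5% of coding transcripts. No transcript of these genes is annotated with an incomplete coding sequence, so leaving such out changed nothing. The shares of Vegfa rest on 277 and 270 reads. No paired analysis was possible because there is 1 group.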
